A study of Mus musculus with 2 samples.

Results

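Interferon-response myeloid cells of the inflamed aortic adventitia were selected by their transcripts. A cell was a member when at least 3 of the 10 interferon-stimulated genes *Ifit1*, *Ifit2*, *Ifit3*, *Rsad2*, *Cxcl10*, *Isg15*, *Cmpk2*, *Usp18*, *Oasl2* and *Ifi44* had a UMI (unique molecular identifier, 1 count per captured transcript). It also held at least 2 UMIs of the myeloid genes *Lyz2*, *Csf1r*, *C1qa* and *C1qb* together, and 0 UMIs of *Fscn1* and *Ccr7*, genes of migratory dendritic cells. In the AngII library 312 cells met this rule, of 3512 cells that met its myeloid part and of 4198 filtered cells. The comparison group was the other 3200 myeloid cells of the same library. Over both libraries 4504 cells passed the filter.

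The cells came from *Rank*-Cre *Rosa26*-eYFP mice, in which Cre made from the *Rank* gene switches on a yellow fluorescent reporter that marks macrophages of yolk sac origin and their descendants. All animals carried both alleles and were about 16 weeks old. CD45-positive adventitial cells of 2 mice given AngII (angiotensin II, 1.8 µg per kg per min) for 10 days were pooled into 1 droplet library, and those of 3 untreated mice into the steady-state library. Each condition is thus 1 library with no map from cells to animals. For want of replicates no p-values are given, and all intervals are 95% intervals of counting error only.

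Type I interferons bind the receptor made of IFNAR1 and IFNAR2, whose kinases JAK1 and TYK2 phosphorylate STAT factors such as STAT2. With IRF9 these form the complex ISGF3, which binds interferon-stimulated response elements (ISRE) in the promoters of antiviral genes, while interferon gamma acts through STAT pairs on GAS elements. In macrophages the programme includes IFIT proteins that bind foreign RNA, the enzyme viperin (*Rsad2*), the ubiquitin-like modifier ISG15 with its protease USP18, and the chemokine CXCL10, which draws T cells.

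The promoters of the rule's genes show the element that the programme is known for, so the stretches that hold it are given here. Promoters (250 bases before to 50 after each start, RefSeq, GRCm38.p6) were at hand for 9 of the 10 genes. The motif GAAANNGAAA, searched on both strands with overlaps counted, stood in 5 of these 9 and in 3.99% of all 27025 genes with a promoter. Each line gives 56 bases 5′ to 3′ on the strand of the gene, all before the start site, with the motif, or its reverse complement, in capitals.
Ifit1: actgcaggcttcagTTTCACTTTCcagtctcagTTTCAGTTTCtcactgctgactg
Ifit3: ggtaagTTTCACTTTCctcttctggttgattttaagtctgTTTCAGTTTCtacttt
Rsad2: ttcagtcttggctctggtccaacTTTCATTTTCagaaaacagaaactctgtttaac
Cxcl10: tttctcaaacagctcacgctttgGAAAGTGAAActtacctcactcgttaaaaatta
Isg15: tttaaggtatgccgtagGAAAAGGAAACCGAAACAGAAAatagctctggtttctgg
The *Ifit1* stretch is chr19:34640771-34640826 on the plus strand, and that of *Ifit3* is chr19:34583367-34583422 on the plus strand. The *Rsad2* stretch is chr12:26456540-26456595, that of *Cxcl10* chr5:92349070-92349125 and that of *Isg15* chr4:156200858-156200913, all on the minus strand. *Ifit1* and *Ifit3* held 2 copies each, *Isg15* 3 overlapping copies, *Rsad2* and *Cxcl10* 1. No match stood in this window of *Ifit2*, *Cmpk2*, *Oasl2* or *Ifi44*, which says only that these letters are not there. *Ifit1*, *Ifit2* and *Ifit3* lie together on chromosome 19 between 34550694 and 34650009, and *Cmpk2* starts at 26469204 on chromosome 12 beside *Rsad2*, whose gene ends at 26456452 (GENCODE M21).

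The share of promoters with the same motif differed between the gene lists described below. It stood in 10 of 11 promoters of interferon gamma-raised GTPases, 9 of 14 of HIN-200 and Schlafen genes and 10 of 19 of antiviral effectors. It stood in 2 of 10 of STAT and IRF factors and in 0 of 7 of interferon receptors and kinases. Outside the interferon lists it stood in 2 of 5 of reparative macrophage markers, 2 of 8 of NK cell markers, 4 of 16 of MHC class I genes, 1 of 8 of MHC class II genes, 0 of 7 of NF-κB target genes, 0 of 10 of chemokines and 0 of 9 of resident macrophage markers. The GAS letters TTCNNNGAA stood in 9.55% of all genes and in 6 of 11 GTPases.

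The rule reads more easily in a deep cell, and the members were deep. They held a median of 9365.5 UMIs (range 502 to 51998) and 3095 genes, while the other myeloid cells held a median of 1019.5 UMIs (500 to 54597) and 641 genes. The share of members among myeloid cells was 1.33% (0.824 to 2.02) under 1000 UMIs and 30.1% (26.1 to 34.3) from 10000 UMIs on, with 5.54%, 14.9% and 16.5% in the 3 steps between. The pooled share of 8.88% therefore mixes depths. When each cell was thinned to 1000 UMIs drawn at random, 74 of 1741 cells met the rule, 4.25% (3.35 to 5.31), and 21 members and 1560 other cells were too shallow to enter. At 5000 UMIs it was 93 of 671, 13.9% (11.3 to 16.7), with 124 members and 2670 other cells left out.

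**Figure D1:**
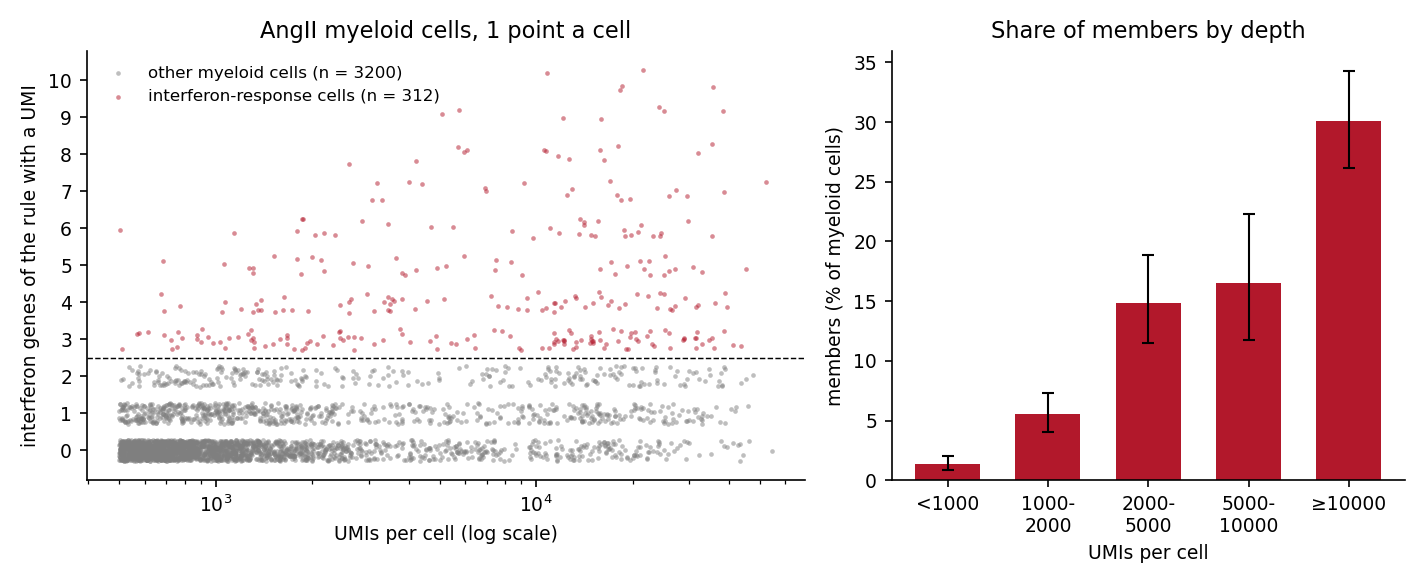
Left, each point is a myeloid cell of the AngII library, placed by its UMIs (log scale) and by how many of the rule's 10 interferon genes had a UMI (spread vertically within a step). The dashed line is the threshold of 3 genes, and the red points above it are the 312 members. Right, bars give the share of members among myeloid cells in 5 steps of depth with 95% exact binomial intervals, from 1.33% under 1000 UMIs to 30.1% from 10000 on.

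The number of interferon genes detected fell off evenly, with no gap at the threshold. Among the AngII myeloid cells 2225 had none, 689 had 1, 286 had 2 and, just inside, 124 had 3. Further in, 71 had 4, 39 had 5, 33 had 6, 19 had 7, 14 had 8, 7 had 9 and 5 had all 10. Members with exactly 3 made up 39.7% of all members. At the myeloid threshold 12 members held exactly 2 UMIs, and 11 cells with enough interferon genes were left outside with 1. In all, 30 cells with 3 or more interferon genes were no members, 15 of them with a *Fscn1* or *Ccr7* UMI and 20 with under 2 myeloid UMIs, 5 of these with both.

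The interferon UMIs were unevenly spread over the members. A member held 3 to 269 UMIs of the 10 genes, with a median of 7. The next highest member held 126, and the 10 highest together held 23.5% of the 5034 UMIs. Members held 74.6% of the interferon UMIs of all myeloid cells, and 24.5% of their UMIs of any gene.

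The myeloid label was checked against the markers. Members held a median of 85 UMIs of the 4 myeloid genes (2 to 1426) and the other cells a median of 13 (2 to 1517). *Lyz2*, lysozyme, had a UMI in 310 of 312 members and *Csf1r*, the receptor of macrophage growth factor, in 254. The myeloid condition by itself was loose. Of 818 filtered cells with 2 or more UMIs of T or B cell markers, 68.5% also met it, with a median of 3 *Lyz2* UMIs, whereas 32.5% held 10 or more myeloid UMIs. Fewer than 10 myeloid UMIs were found in 13.8% of members and in 39.2% of the others, and both groups can hold lymphocytes that carry free myeloid RNA.

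T and NK cell markers were lower in the members than in the other cells, and B cell markers (0 of 7 genes at 0.5 or less) were near them in level. At least 2 UMIs of the T cell list (8 of 8 genes at a ratio of 0.5 or less) were found in 15 members, 4.81%, against 263 others, 8.22%. For the NK list (3 of 3 genes compared at 0.5 or less, 6 of 8 genes at 0 in members) it was 2 members against 36 others. For the B cell list it was 39 members, 12.5%, against 176 others, 5.5%. Neutrophil markers (1 of 7 at 2 or more) reached 2 UMIs in 138 members, 44.2%, against 825 others, 25.8%, and their ratios turned among the deep cells described below. Mast cell markers (2 of 5 at 0.5 or less) reached 2 UMIs in 7 members against 54 others. Fibroblast markers reached 2 UMIs in 5 members and 4 others, endothelial markers in 10 and 33, smooth muscle markers in 1 and 12, red cell markers in 1 and 7, and eosinophil markers in 6 and 41. Doublets were not removed, and the part of such cells in the results was not tested beyond the alternatives given at the end.

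The levels of the genes that chose the members describe the choice and support nothing further. In CPM (the UMIs of a gene per 1000000 UMIs of the summed cells), *Ifit3* stood at 116 (106 to 128) in members and 5.81 (4.50 to 7.38) in the others. *Rsad2* stood at 125 (114 to 137) against 6.59 (5.19 to 8.25), and *Ifit2* at 77.3 (68.7 to 86.8) against 5.46 (4.2 to 6.99). *Ifit1* was at 116 against 7.46 and *Cmpk2*, a mitochondrial nucleotide kinase, at 36.5 against 3.04. These IFIT genes, *Rsad2* and *Cmpk2* had a UMI in at most 2.34% of the other cells, which were shallower and which the rule had not chosen. They were not absent outside the members, who held from 65.8% (*Ifit2*) to 74.2% (*Rsad2*) of each gene's UMIs in the filtered library.

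*Cxcl10* stood at 178 CPM (165 to 192) in members and 10.3 (8.55 to 12.4) in the others. It was found in 34.3% of members, with up to 121 of its 667 UMIs in 1 cell. *Isg15*, found in 83.7% of members and 13.1% of the others, stood at 388 against 57.2 CPM. *Oasl2*, an oligoadenylate synthetase-like protein, was in 72.1% and 11% of cells, at 208 against 40.8 CPM. *Usp18* was at 77.1 against 8.76 and *Ifi44* at 19.7 against 3.04, the latter in 17.6% of members. *Isg15* and *Oasl2* were thus the genes through which a cell most often met the rule, and they were also those most often seen in cells outside it.

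**Figure D2:**
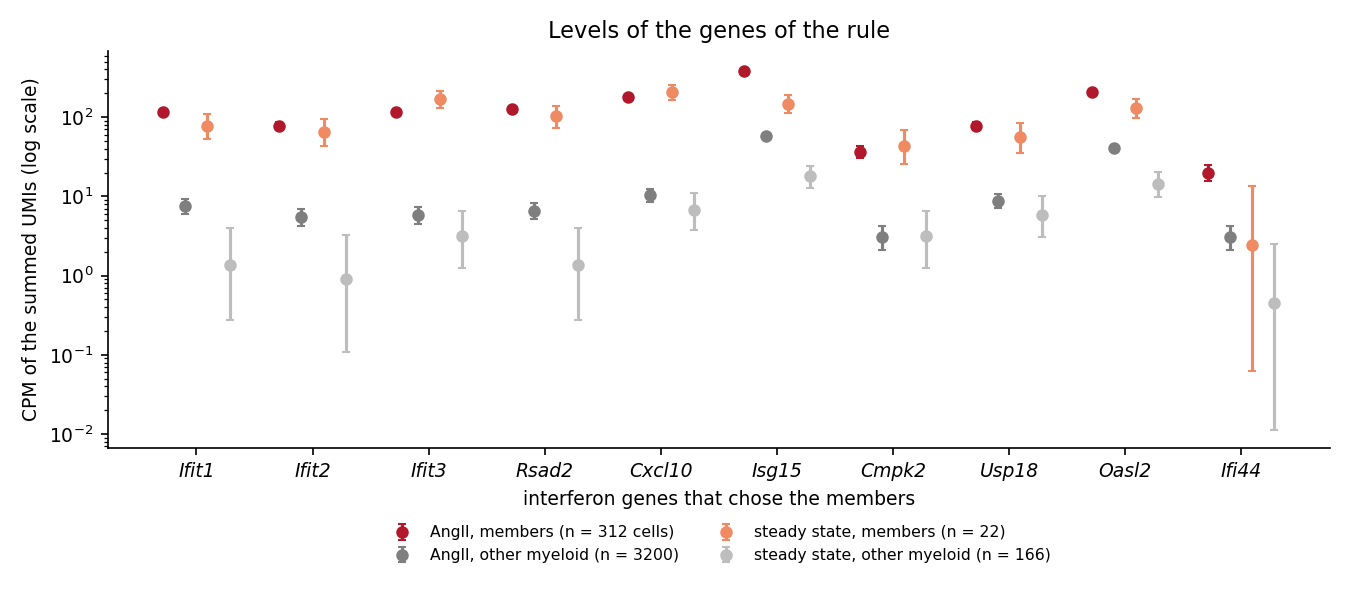
Each point is the summed level of a gene of the rule, in CPM on a log scale with its 95% Poisson interval, in members (red) and other myeloid cells (grey) of the AngII library and in cells chosen by the same rule at steady state (orange, light grey). Members sit above the others in both libraries, as the rule requires, from 5.11 times for *Oasl2* to 20.0 times for *Ifit3* on AngII.

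Cells were also chosen and read on different UMIs of the same cells. When the 74 members were chosen on 1000 UMIs drawn from each cell, the UMIs left over still held *Ifit2* at 438 CPM (372 to 513) against 12.2 (10.1 to 14.6) in the 1667 other cells, 35.9 times. *Ifit3* was 24.5 times (19.9 to 30.1), *Cxcl10* 25.4 times (21.6 to 29.8), *Isg15* 11.9 times (10.7 to 13.3) and *Oasl2* 5.38 times (4.49 to 6.40). All 10 genes stayed at a ratio over 5 in the UMIs left over. The same 10 genes chose the cells, so the values show only that the choice carried over to other UMIs of these cells. This split was added after the data were seen.

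Genes of the same pathway that the rule did not use were also higher in the members. Levels were compared for 10547 genes with at least 50 UMIs in both groups together, the rule's genes left out, and the median ratio of members over others was 0.984. A ratio of 2 or more was reached by 126 genes, 1.19%, and a ratio of 0.5 or less by 259 genes, 2.46%. Of 79 genes compared in the 5 lists of antiviral effectors, HIN-200 and Schlafen genes, sensors, STAT and IRF factors and interferon gamma-raised GTPases, 49 reached 2. These 49 were 38.9% of all genes at 2 or more.

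Antiviral effectors, the proteins that block viral RNA and its translation, reached 2 in 22 of 27 genes and 0.5 or less in 0, with a median ratio of 2.86. *Ifit3b* had 26.7 CPM against 1.82, 14.6 times (9.08 to 24.7), and shares reads with its near copy *Ifit3*, so its count is uncertain. *Ifit1bl1*, of the same gene cluster, was 8.78 times (5.27 to 15.2). *Mx1*, a GTPase that traps viral nucleocapsids, had 45.9 CPM against 8.24, 5.57 times (4.31 to 7.23). *Oasl1* was 5.29 times (3.95 to 7.13). The lowest of the list were *Ly6e*, a membrane protein that restricts coronaviruses, at 1.42 times (1.38 to 1.47), and *Ifi35* at 1.5 times (1.32 to 1.70). Summed over its genes the list was 9606 CPM against 5130, 1.87 times, below the median of its genes. Members of the *Oas* family are close copies of each other, which also makes their single counts uncertain.

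HIN-200 proteins sense DNA in the nucleus and cytosol, and Schlafens act on transfer RNA and cell growth. They reached 2 in 11 of 15 genes compared, with a median of 2.34. *Ifi213* had 61.1 CPM against 11.8, 5.18 times (4.17 to 6.45), *Ifi209* was 3.13 times (2.84 to 3.45) and *Slfn5* 2.89 times (2.71 to 3.08). *Slfn4* was 4.92 times (3.98 to 6.10), with 63 of its 232 UMIs in 1 member. The DNA sensor *Aim2* stood at 0.910 times (0.746 to 1.11), and *Ifi205*, which is also on the list of type-1 dendritic cell markers, at 0.695 times (0.615 to 0.783).

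The sensors that start the response reached 2 in 3 of 13 genes, all 3 of them of the RIG-I family of cytosolic RNA sensors. *Ifih1* (MDA5) had 83.2 CPM against 27.6, 3.02 times (2.57 to 3.54), *Ddx58* (RIG-I) was 2.74 times (2.32 to 3.24) and *Dhx58* (LGP2) 2.53 times (2.09 to 3.06). *Cgas*, the DNA sensor, was 1.61 times (1.29 to 1.99). Its adaptor STING (*Tmem173*) stood at 0.940 (0.833 to 1.06) and the endosomal sensor *Tlr3* at 0.669 (0.520 to 0.851). The list's median was 1.30.

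The receptors and kinases through which interferon signals did not reach 2 in any of 7 genes. Their ratios ran from 0.799 (0.691 to 0.922) for *Jak2* to 1.13 (1.01 to 1.27) for *Ifnar1*, with a median of 0.961. *Ifnar2* was 1.10 (0.993 to 1.21), *Ifngr2* 1.06, *Jak1* 0.961, *Tyk2* 0.888 and *Ifngr1* 0.831. The spread of this list around the median of all genes was narrow.

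Downstream of the receptors the transcription factors were split. *Irf7*, the factor that amplifies type I interferon production, had 232 CPM against 53.3, 4.36 times (3.92 to 4.84), and a UMI in 62.8% of members against 11.9% of the others. *Stat2* was 2.51 times (2.15 to 2.93). *Irf1* was 1.45 times (1.26 to 1.68) and *Irf9* 1.35 times (1.17 to 1.55). *Irf4* stood at 0.918 (0.681 to 1.22) and *Irf8*, which is highest in type-1 dendritic cells, at 0.577 (0.535 to 0.623). In all 3 of 11 genes reached 2, with a median of 1.27.

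The list of feedback regulators, which holds inhibitors of the response beside genes with other roles in it, reached 2 in 2 of 10 genes, with a median of 1.59. These were *Isg20*, an RNA exonuclease, 3.65 times (2.98 to 4.48), and *Trim30a* 2.29 times (2.12 to 2.47), both also listed among the effectors. *Parp9*, which enhances interferon signalling, and *Nlrc5*, the activator of MHC class I genes, were 1.89 and 1.75 times. The inhibitors *Socs1* and *Socs3* were at 1.53 (1.16 to 2) and 0.869 (0.806 to 0.936).

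Transcripts of the interferons themselves were nearly absent. None of the 10 ligands listed had 50 UMIs. *Ifnb1*, interferon beta, was found in 1 cell of the filtered library, a member with 2 *Ifnb1* UMIs that held 74 UMIs of 7 of the rule's genes. *Ifng*, interferon gamma, had 24 UMIs in 12 filtered cells, of which 1 UMI was in a member and 10 were in 5 other myeloid cells. The other 8, among them *Ifna1*, *Ifna2*, *Ifna4* and *Ifna5*, had 0 UMIs.

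Guanylate-binding proteins and immunity-related GTPases, which attack the vacuoles of intracellular parasites and are best known as targets of interferon gamma, reached 2 in 10 of 13 genes with a median of 3.03. *Iigp1* had 47.7 CPM against 10.3, 4.62 times (3.65 to 5.88), with 64 of its 179 UMIs in 1 member. *Gbp2* was 4.21 times (3.46 to 5.13), *Ifi47* 4.15 times (3.62 to 4.76) and *Gbp4* 3.40 times (2.34 to 4.95). *Ifi47* was also broad, with a UMI in 52.9% of members against 8.78% of the others. The lowest were *Gvin1* at 1.70 (1.06 to 2.69) and *Gbp8* at 1.82 (1.11 to 2.94). *Tgtp1* and *Tgtp2*, with 0 and 17 UMIs in members, are near-identical and were not compared.

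**Figure D3:**
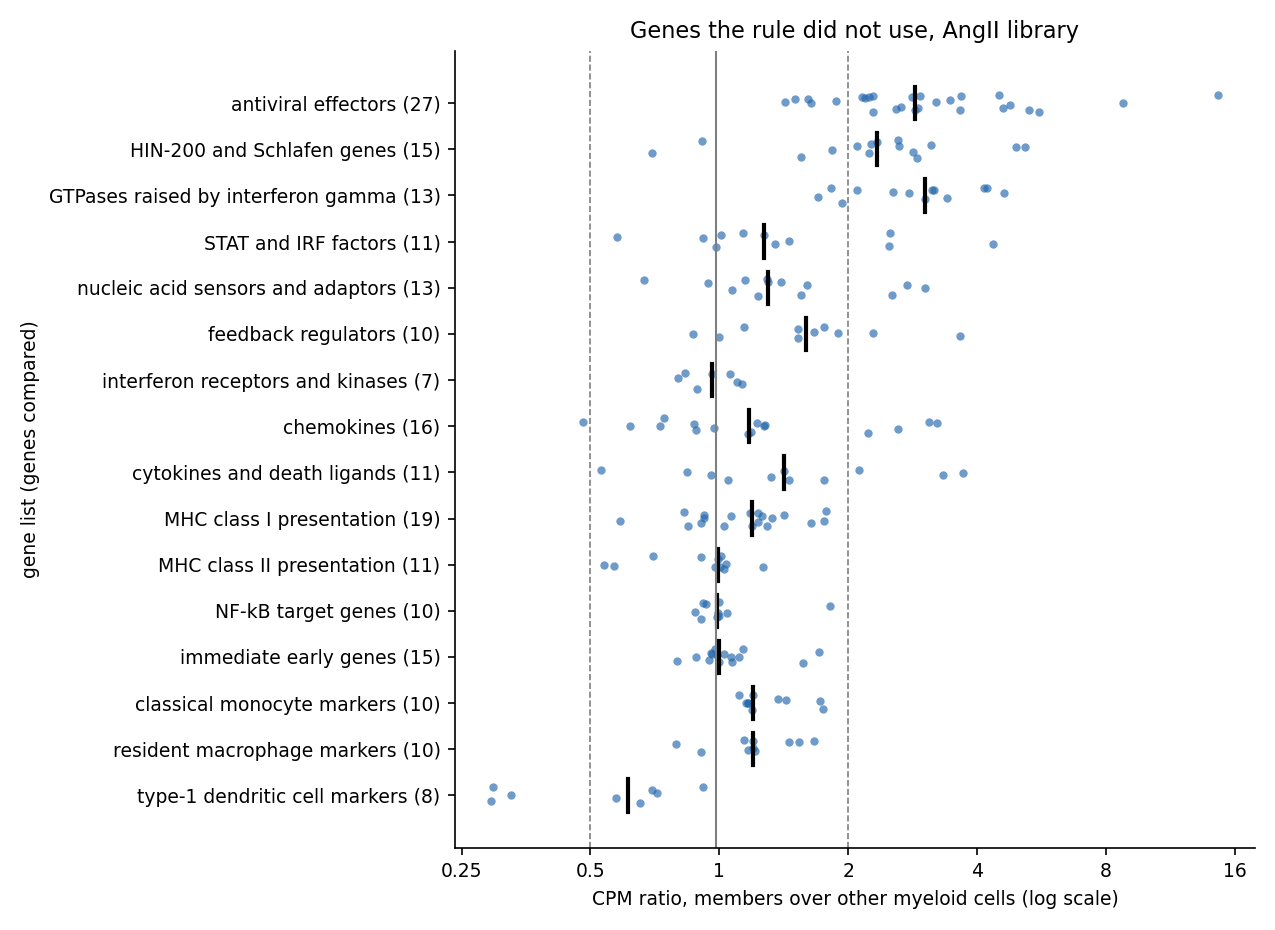
Each point is a gene that took no part in the rule, placed by its CPM ratio of members over other myeloid cells (log scale), and each row is a gene list with the number of genes compared. Black bars are the medians of the lists, the grey line is the median of all 10547 genes at 0.984, and dashed lines mark ratios of 0.5 and 2. Antiviral, HIN-200 and Schlafen genes and GTPases lie mostly right of 2, receptors, MHC class II, NF-κB target and immediate early genes around 1, and type-1 dendritic cell markers left of 1.

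Among chemokines 4 of 16 reached 2 and 1 was at 0.5 or less, with a median of 1.18. *Cxcl9*, which with *Cxcl10* binds CXCR3 on T cells, had 48.5 CPM against 15.1, 3.22 times (2.60 to 3.98), yet 81 of its 182 UMIs were in 1 member. *Cxcl3*, a neutrophil attractant, was 3.09 times (2.78 to 3.45), with 368 of 680 UMIs in 1 member. *Ccl12* had 325 CPM against 124, 2.62 times (2.42 to 2.83), and *Ccl8* 815 against 366, 2.23 times (2.13 to 2.34), both ligands that draw monocytes. *Ccl12* was found in 41.0% of members and 14.4% of the others. The related *Ccl2* and *Ccl7* were 1.27 and 1.17 times. *Ccl24*, an eosinophil attractant, stood at 0.481 (0.409 to 0.562) and *Cxcl1* at 0.618 (0.484 to 0.782). *Cxcl11* had 8 UMIs in members and 3 in the others, too few to be compared.

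Of the cytokines and death ligands 3 of 11 reached 2, with a median of 1.41. *Tnfsf10* (TRAIL) was 3.71 times (2.20 to 6.29) on 35 and 29 UMIs, *Il18bp*, which neutralises interleukin 18, 3.33 times (2.54 to 4.38), and *Il10* 2.11 times (1.47 to 3.02). *Il15* was 1.75 times (1.29 to 2.38). The inflammatory cytokines *Il1b* and *Tnf* stood at 0.955 (0.928 to 0.984) and 0.839 (0.723 to 0.971), but at 1.14 (1.11 to 1.18) and 1.03 (0.865 to 1.22) among cells with 10000 or more UMIs. *Il1a* was at 0.530 (0.392 to 0.705).

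NF-κB target genes reached 2 in 0 of 10, with a median of 0.988, the highest being *Cd40* at 1.81 (1.48 to 2.21). Immediate early genes, which respond to cell handling among other stimuli, reached 2 in 0 of 15 with a median of 0.999, led by *Hspa1a* at 1.71 (1.39 to 2.09). Mitochondrial UMIs had a median of 1.36% in members and 1.27% in the others. On these lists the members stood near the other myeloid cells.

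MHC class I presentation genes reached 2 in 0 of 19, with a median of 1.19. *H2-T22* was 1.77 times (1.54 to 2.04), *H2-T23* 1.63 times (1.54 to 1.74) and *B2m* 1.23 times (1.20 to 1.26), while *H2-Q6*, 1 of several near copies, was at 0.587 (0.394 to 0.851). MHC class II genes reached 2 in 0 of 11, with a median of 0.993, and *H2-Ab1* had 5224 CPM against 5262. *H2-Oa* and *H2-Ob*, peptide-loading regulators of B and dendritic cells, were at 0.567 and 0.538. Of the costimulatory and checkpoint ligands 1 of 9 reached 2, *Lgals9* at 2.22 (1.99 to 2.47), and PD-L1 (*Cd274*) was at 1.05 (0.779 to 1.4). Of the complement and Fc receptor genes 2 of 11 reached 2, complement factor B (*Cfb*) at 2.47 (1.89 to 3.23) and the high-affinity IgG receptor *Fcgr1* at 2.23 (2.08 to 2.39).

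The lists of macrophage and monocyte kinds differed less. Classical monocyte markers reached 2 in 0 of 10, and the summed list stood at 3067 CPM in members against 2252, 1.36 times (1.33 to 1.39). *Ly6c2* was 1.75 times (1.61 to 1.89), though reads can be shared with its near copy *Ly6c1*, and *Plac8* was 1.72 times (1.65 to 1.80). Resident macrophage markers reached 2 in 0 of 10, with a summed ratio of 1.18 (1.15 to 1.21). *Cd209f* was 1.66 times, *Lyve1*, the hyaluronan receptor of resident macrophages, 1.54 times (1.37 to 1.73), *Timd4* 0.906 (0.595 to 1.35) and *Stab1* 0.791 (0.728 to 0.859). In 1 member stood 52 of the 156 *Cd209f* UMIs, and in 1 member 110 of the 439 *Lyve1* UMIs. The resident ratio was not stable. With members chosen at 1000 UMIs it was 0.968, and in the UMIs left over from that draw 0.780, while over depth strata it was 1.28, and the cause was not tested.

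Type-2 macrophage markers reached 2 in 1 of 7 genes and 0.5 in 1. Their summed list stood at 2903 CPM in members against 1796, 1.62 times (1.58 to 1.65), above the classical monocyte list. *Retnla* (RELMα), with 6648 of the list's 10886 UMIs in members, was 2.05 times (1.99 to 2.12), and 1555 of its UMIs were in 1 member. *Plet1* was at 0.150 (0.0540 to 0.336). Reparative markers reached 2 in 2 of 10, *Mmp12* at 2.59 and *Inhba* at 2.22, and in each case 1 member held a large part, 214 of 470 and 159 of 243 UMIs. *Arg1* was at 1.06 (0.974 to 1.15), with 209 of 790 UMIs in 1 member. Of the nonclassical monocyte markers *Fabp4* was at 3.34, with 142 of 344 UMIs in 1 member, *Cd300e* at 0.463 (0.222 to 0.879), and the median over 10 was 0.800. Type-1 and type-2 dendritic cell markers were lower as summed lists, at 0.651 and 0.921. Type-1 markers were at 0.5 or less in 3 of 8, with *Xcr1* at 0.297 (0.224 to 0.387) and *Itgae* at 0.294, and type-2 markers in 3 of 8, with *Ccl17* at 0.251 and *Flt3* at 0.420. Of the migratory dendritic list, whose 2 leading genes the rule set to 0, 0 of 6 reached 2 and the summed ratio was 1.12 (1.06 to 1.18), with *Cd63* at 1.21 and *Ccl22* at 0.384 on 7 UMIs in members, which became 1.08 over depth strata. The plasmacytoid list reached 2 only in *Bst2*, itself an interferon target, with *Ccr9* at 0.359 and *Siglech* at 0.447. Cell cycle markers reached 2 in 0 of 7 (median 0.788) and type-2 innate lymphoid markers in 0 of 5 (median 0.682).

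The level of these lists was also read along the number of interferon genes detected, on both sides of the threshold. Interferon gamma-raised GTPases stood at 175 CPM in the 2225 cells with none, 293 in the 286 cells with 2, 348 in the 124 cells with 3 and 1440 in the 45 cells with 7 to 10. Across the threshold, from 2 to 3, the step was 1.19 times, and from 3 to 7 to 10 it was 4.13 times. Antiviral effectors stood at 4559, 6612, 7999 and 13468 CPM in the same groups, and HIN-200 and Schlafen genes at 1297, 1920, 2141 and 5090. The interferon programme was thus graded across the threshold, with no step at it. MHC class II genes stood at 31826 CPM with none and 37091 with 7 to 10, and NF-κB target genes at 1838 and 1520. Depth moved with this order, from a median of 873 UMIs with none to 12907 with 7 to 10, and its part was not tested.

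**Figure D4:**
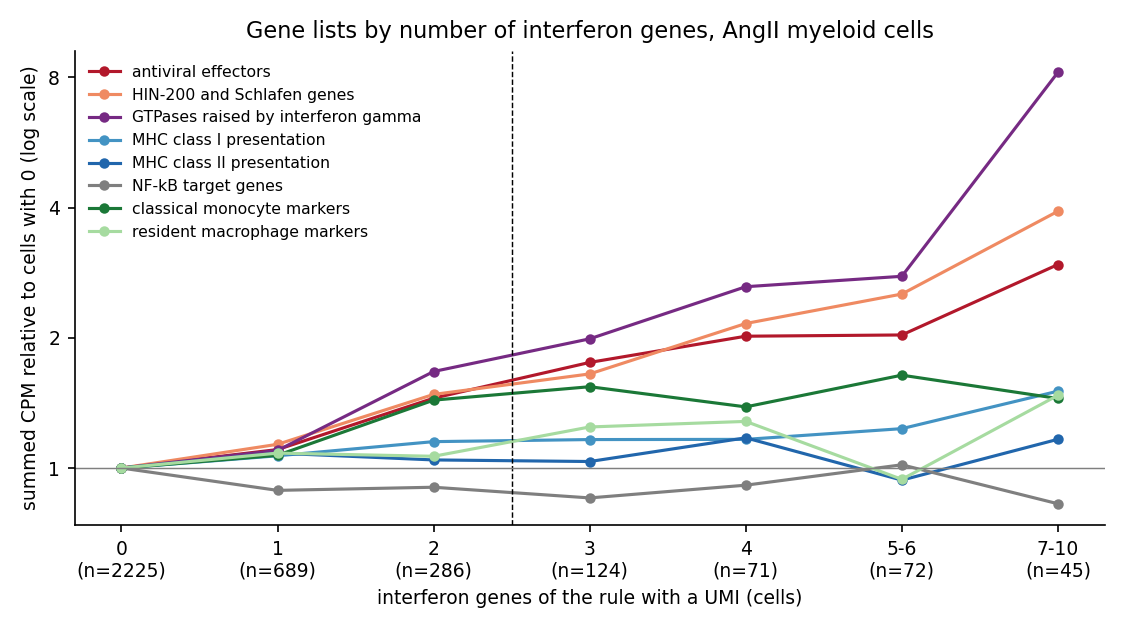
Lines follow the summed CPM of 8 gene lists over AngII myeloid cells grouped by how many of the rule's interferon genes had a UMI, each relative to the cells with none (log scale), with the number of cells under each group. The dashed line marks the threshold. GTPases reach 8.22 times, HIN-200 and Schlafen genes 3.92 times and antiviral effectors 2.95 times in cells with 7 to 10 genes, while MHC class II and NF-κB target genes stay between 0.827 and 1.17 times at that end.

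Outside all lists, the genes with the highest ratios among those with at least 100 UMIs were named by rule. *Gm6545* led with 23.7 CPM against 3.21, 7.40 times (4.99 to 11.2), followed by the HIN-200 gene *Ifi206* at 6.33 (5.07 to 7.94) and *Gm4951*, a GTPase-like gene model, at 5.20 (3.50 to 7.80). *H2-T24* was at 4.87, *Gm12250* at 4.59, *Calhm6* at 4.12 and *BC147527* at 3.43. *Ly6a* (Sca-1) had 438 CPM against 131, 3.34 times (3.12 to 3.59), with a UMI in 50.3% of members and 17.2% of the others. *Cd209d* was at 3.1, *Ms4a4c* at 2.82 (2.64 to 3.00), *Tor3a* at 2.74, *Ifi214* at 2.67, the necroptosis effector *Mlkl* at 2.66, and the ISG15-conjugating enzyme *Ube2l6* at 2.55. *Ifi206* and *Ifi214* are close in sequence to the listed HIN-200 genes and their counts are uncertain.

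The lowest ratios came mostly from few cells of the comparison group. *Ighg2c* had 9 UMIs in members against 8822, of which 99.7% were in 1 cell, and 0 UMIs of *Jchain*, *Iglv1* and *Igkv9-120* were found in members, with over 99% of each gene's UMIs in 1 other cell. *Igkc*, the immunoglobulin kappa constant gene, was at 0.0334 (0.0294 to 0.0379), with 95.9% in 1 cell. *Ctsk* was at 0.0265 and *Mucl1* at 0.105, again with most UMIs in 1 cell. *Cxcl13*, a B cell attractant, was at 0.0218 (0.000548 to 0.123), *Il2rb*, of T and NK cells, at 0.0261, and *Lgals7* at 0.0436, and in *Cxcl13* and *Il2rb* no other cell held over 12.1% of the UMIs.

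Because the members were deep, the ratios were read again among cells with 10000 or more UMIs, 154 members and 358 others. *Ifit3b* was 74.1 times (19.7 to 624), *Mx1* 6.36 times (4.57 to 8.99), *Irf7* 5.37 times and *Gbp2* 5.36 times. *Ccl8* was 3.04 times and *Ccl12* 2.52 times. *Cxcl9* was 2.5 times. *Ly6c2* was 1.5 times and *Lyve1* 1.80 times, and *Xcr1* stood at 0.190. For *Ifit3b*, *Mx1*, *Irf7*, *Gbp2* and *Ccl8* the ratio among deep cells was above the pooled one, and for *Cxcl9*, *Ccl12* and *Ly6c2* below it. Neutrophil markers turned to the side of the members: *S100a8* was 0.788 over all cells and 2.27 (2.12 to 2.42) among deep cells, *S100a9* 0.901 and 2.53 (2.38 to 2.70), *Cxcr2* 0.801 and 1.92 (1.46 to 2.54), and *Retnlg* 2.24 and 4.12 (2.96 to 5.77). The highest member held 626 of 3262 *S100a8* UMIs and 198 of 409 *Retnlg* UMIs. The part of neutrophil RNA in the other ratios was not tested.

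Which kinds of myeloid cell held the state was read by single marker genes, with each cell thinned to 5000 UMIs so that detection was equal. Among 114 cells with a *Ly6c2* UMI 29.8% (21.6 to 39.1) were members, against 10.6% (8.16 to 13.5) of 557 cells without one. This was the only marker of the 9 read whose intervals with and without a UMI did not overlap. Among 81 cells with *Lyve1* 17.3% (9.78 to 27.3) were members, against 13.4% without. The shares were 13.7% of 117 cells with *Arg1*, 17.5% of 97 with *Ear2*, 15.8% of 101 with *S100a8*, 12.0% of 25 with *Ace* and 11.4% of 35 with the proliferation gene *Mki67*. They were 8.33% (1.75 to 22.5) of 36 cells with *Xcr1* and 7.02% (1.95 to 17.0) of 57 with *Cd209a*. At this depth members were found with every marker, at numbers too small to order the shares other than that of *Ly6c2*. With each cell at 1000 UMIs the intervals of both *Ly6c2* and *Lyve1* did not overlap. *Ly6c2* gave 11.1% (6.97 to 16.4) against 3.42% (2.57 to 4.45), and *Lyve1* 9.22% (5 to 15.3) against 3.81% (2.93 to 4.87). At that depth 0 of 26 cells with *Ace* and 0 of 55 with *Mki67* were members, with upper bounds of 13.2% and 6.49%. The share with *Xcr1* changed side, from 8.33% against 14.2% without it at 5000 UMIs to 11.1% (3.71 to 24.1) of 45 cells against 4.07% at 1000. Its intervals with and without a UMI overlapped at both depths.

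**Figure D5:**
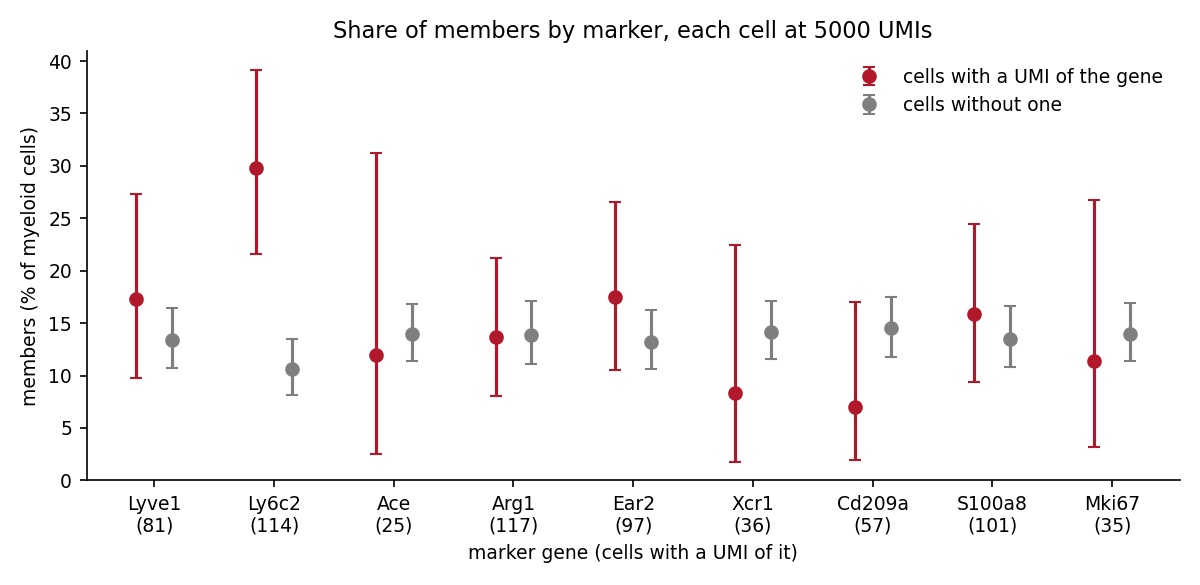
Points give the share of members among AngII myeloid cells with (red) and without (grey) a UMI of each marker gene, every cell thinned to 5000 UMIs, with 95% exact binomial intervals. Numbers under the genes are the cells with a UMI. The share with *Ly6c2* is 29.8% against 10.6% without, and for the other 8 genes the intervals overlap.

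Within each kind, read at 5000 UMIs, the antiviral effectors, which took no part in the rule, were higher in members than in the rest. They stood at 13265 CPM in members with *Ly6c2* and 9405 in the other *Ly6c2* cells, 1.41 times (1.34 to 1.49). With *Lyve1* the values were 13214 and 6716, 1.97 times (1.82 to 2.12), and with *Arg1* 9700.0 and 4842, 2 times (1.85 to 2.17). With *Xcr1* they were 6867 and 2933, 2.34 times (1.87 to 2.90), on 3 members. Outside the members, cells with *Ly6c2* thus held more antiviral transcripts than cells with *Lyve1*, *Arg1* or *Xcr1*, while cells with *Ace* came nearest to them at 8164 CPM. Over all other myeloid cells at full depth, *Ifitm3*, *Ly6e* and *Ifi27l2a* held 1831, 1127 and 1059 of the list's 5130 CPM. The part of these abundant genes in this order was not tested.

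Members with *Ly6c2* and no *Lyve1* (96 cells, median 11987 UMIs) were set beside members with *Lyve1* and no *Ly6c2* (30 cells, median 6448), a further 165 holding neither and 21 both. The interferon genes differed by gene. *Isg15*, *Ifit1*, *Cxcl10* and *Usp18* are genes of the rule, which deep cells meet more easily, so their values describe the choice. *Isg15* was 439 CPM (402 to 477) with *Ly6c2* and 338 (277 to 409) with *Lyve1*, and *Irf7* 258 (231 to 289) and 168 (126 to 219). *Ifit1* was 89.7 (73.7 to 108) and 234 (184 to 294), and *Cxcl10* 113 (95.3 to 134) and 243 (192 to 304), with 42 of the 77 UMIs of the latter in 1 cell. *Usp18* stood at 81.5 and 79.0 CPM. *Iigp1* was 14.7 (8.70 to 23.2) with *Ly6c2* and 174 (131 to 226) with *Lyve1*, with at most 19 of 55 UMIs in 1 cell.

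The same members differed in their chemokines. *Ccl7* was 197 CPM with *Ly6c2* and 1736 with *Lyve1*, found in 39.6% and 80.0% of the cells. *Ccl12* was 169 and 790 CPM, found in 33.3% and 60.0%. Of the UMIs with *Lyve1*, 156 of 549 for *Ccl7* and 95 of 250 for *Ccl12* were in 1 cell. *Ccl8* was 411 and 3355, of which 560 of 1061 UMIs were in 1 *Lyve1* member. *Il1b* was 2990 CPM (2894 to 3088) with *Ly6c2* and 379 (315 to 454) with *Lyve1*. *Cxcl3* had 660 UMIs in 9.38% of the former, 368 of them in 1 cell, and 0 UMIs in the latter. *Ccr2*, a receptor for CCL7 and CCL12, was 1349 and 661 CPM. Both kinds of member held every gene of the rule.

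Members were also read by whether they held *Cxcl10*. The 107 members with a *Cxcl10* UMI had a median of 5078 UMIs, and the 205 without one 11807. *Ifit2*, *Rsad2* and *Oasl2* are genes of the rule, of which a member with *Cxcl10* needs 2 and a member without it 3, so their values describe the choice. *Ifit2* was 178 CPM (153 to 206) with *Cxcl10* and 38.7 (31.7 to 46.9) without, 4.60 times (3.60 to 5.90), whereas *Rsad2* was 1.37 times (1.13 to 1.67) and *Oasl2* 1.21 times (1.03 to 1.41). *Gbp2* was 3.67 times (2.84 to 4.78), *Gbp5* 6.91 times (3.88 to 12.9) and *Ccl12* 2.95 times (2.63 to 3.30). Of the 647 *Ccl12* UMIs in members with *Cxcl10*, 143 were in 1 cell. *Cxcl9* was 126 CPM against 18.8, with 81 of its 131 UMIs in 1 cell. *Retnla* and *Lyve1* were lower with *Cxcl10*, at 0.317 and 0.336 times, though 1 cell without *Cxcl10* held 1555 *Retnla* UMIs and another 110 *Lyve1* UMIs. *Ccl2*, *Ccl7* and *Il1b* were at 0.997, 1.05 and 0.960. With depth strata pooled, *Ifit2* was 3.74 times, *Gbp2* 3.25 times and *Ccl12* 2.61 times.

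The reporter was read in the members too. *Yfp* had a UMI in 83 of 312 members, 26.6% (21.8 to 31.9), and in 9.19% (8.21 to 10.2) of the others. Depth moved with this gap. With each cell at 5000 UMIs it was 18.3% (11 to 27.6) of 93 members and 19.2% (16.1 to 22.7) of 578 others, a difference within the intervals. At 1000 UMIs the shares were 10.8% (4.78 to 20.2) and 7.08% (5.89 to 8.42). In level *Yfp* was 76.0 CPM (67.4 to 85.4) in members and 60.6 (56.2 to 65.3) in the others, 1.25 times (1.09 to 1.44), and over depth strata 1.31 times. As a background, lymphocytes with no myeloid UMI had a *Yfp* UMI in 4 of 120 cells, 3.33% (0.916 to 8.31), at a median of 1260 UMIs. Members with *Lyve1* held *Yfp* at 139 CPM (101 to 187) and those with *Ly6c2* at 50.6 (38.8 to 64.8).

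At steady state the same rule found 22 of 188 myeloid cells, with 7620 to 49485 UMIs. At equal depth these were fewer: at 5000 UMIs 9 of 173 cells, 5.20% (2.41 to 9.65), against 13.9% (11.3 to 16.7) on AngII, and at 1000 UMIs 1 of 184 cells, 0.543% (0.0138 to 2.99), against 4.25% (3.35 to 5.31). At 5000 UMIs 124 members and 2670 other cells on AngII were too shallow to enter, against 0 and 20 at steady state. Equal depth at 5000 UMIs thus set the deeper AngII cells beside nearly all steady-state cells. The intervals did not overlap at either depth, yet the treatment, the animals and the library cannot be told apart. Outside the members *Isg15* was 18.0 CPM (12.8 to 24.5) at steady state and 57.2 (52.9 to 61.7) on AngII, and *Ifit1* 1.35 (0.278 to 3.94) and 7.46 (5.97 to 9.21). These levels are not at equal depth, as the cells outside the members held a median of 11431 UMIs at steady state and 1019.5 on AngII. A shallow cell meets the rule less easily and so stays outside, and the part of this in the 2 levels was not tested.

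The levels of the rule's genes describe the choice at steady state too. In the steady-state members *Ifit3* stood at 168 CPM (131 to 213) and *Cxcl10* at 207 (166 to 256), while *Isg15* at 149 (114 to 191) and *Oasl2* at 129 (96.8 to 169) were below their AngII levels. Over the other myeloid cells of their library, GTPases were 2.71 times (2.34 to 3.12), HIN-200 and Schlafen genes 1.90 times (1.77 to 2.03) and antiviral effectors 1.82 times (1.74 to 1.90), against 3.01, 2.10 and 1.87 on AngII. NF-κB target genes were at 1.02 (0.948 to 1.10). The highest steady-state member held 200 of the 411 interferon UMIs, so these levels rest largely on 1 cell. *Yfp* had a UMI in 17 of the 22 and in 53.0% of the other steady-state myeloid cells, and at 5000 UMIs in 8 of 9 members, 88.9% (51.8 to 99.7), and 43.9% (36.2 to 51.9) of 164 others.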

How the data were processed

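Single-cell transcripts of CD45-positive adventitial cells were analysed in 1 AngII and 1 steady-state library (10x 3' v3.1). Reads were mapped by the authors with Cell Ranger 3.1.0 against the GRCm38.p6 genome (GENCODE M24), to which eYFP had been added. The deposited values are raw UMI counts of each gene in each barcode. The AngII matrix held 4419 barcodes and 20481854 UMIs and the steady-state matrix 346 barcodes and 4009678 UMIs, with 0 barcodes shared.

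With the thresholds that the study states, a barcode was kept if it held 300 to 6500 genes and no more than 5% of its UMIs were mitochondrial. This left 4198 AngII and 306 steady-state cells, fewer than the 4419 and 346 cells that the study analysed. The members, the gene lists and the tests were chosen with earlier results of these data known. UMIs were summed over the cells of a group and scaled to CPM (exact Poisson intervals), ratios carry exact conditional binomial intervals and shares of cells Clopper-Pearson intervals, at 95%. They cover counting error only, and cells of 1 library are not replicates. For a group with 0 UMIs the ratio was taken at 3 UMIs, and was printed for no gene. Genes were compared from 50 UMIs. Depth was handled by thinning without replacement, and by Mantel-Haenszel ratios over 5 strata of UMIs. In lists, up to 4 highest and 2 lowest genes were to be named, and outside them the 15 highest and 10 lowest from 100 UMIs whose direction held in the strata. Some genes that the rule would name are not reported here. Further genes were named for their role or after their values were seen, as were the pairs of member kinds. Coordinates are 1-based, from GENCODE M21 on GRCm38. Promoter sequences are from RefSeq, and the one of *Usp18* was not used here. The software was Matplotlib 3.10.9, pandas 2.3.3, SciPy 1.17.1, NumPy 2.4.6 and Python 3.11.15, and the ratio and thinning steps were tested on simulated data. The alternatives changed the cell filter, both thresholds of the rule, the depth, the other lineages, the deepest cells, the CPM and the minimum counts.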

Additional observations from a re-analysis of the deposited data

How the results depend on the processing

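The results were recomputed under other choices, those at 5000 UMIs and in the UMIs left over having been added after the data were seen. The share of members among AngII myeloid cells was 21.7% from 1000 genes on, 17.0% with 2 and 3.33% with 5 interferon genes required, 12.2% from 10 myeloid UMIs on, 7.39% without cells of over 20000 UMIs, and 4.25% and 13.9% at 1000 and 5000 UMIs. The median ratio of antiviral effectors stayed above 2 in every alternative run. It was 3.04 from 1000 genes on, 2.53 and 3.45 with 2 and 5 interferon genes, 2.59 from 10 myeloid UMIs on, 3.21 at 1000 UMIs, 2.96 without cells of over 20000 UMIs, 2.64 over all deposited barcodes, 2.62 without cells of another lineage, 3.29 over depth strata, 2.70 as a mean of single cells and 3.9 in the UMIs left over. Genes at a ratio of 2 or more numbered 239 as a mean of single cells, among the same 10547 genes that gave 126 (1.19%) in the main comparison. They numbered 241 at 1000 UMIs, 405 in the UMIs left over and 76 from 200 UMIs on. There the set of genes compared changed and its size is not given, so these counts cannot be set beside the 126. The classical monocyte ratio was 1.44 and 1.33 with 2 and 5 interferon genes, 1.26 from 10 myeloid UMIs on, 1.29 at 1000 UMIs, 1.44 without cells of over 20000 UMIs, 1.27 over all barcodes, 1.32 without cells of another lineage, 1.31 as a mean of single cells and 1.54 in the UMIs left over. The resident macrophage ratio turned to 0.968 at 1000 UMIs and to 0.780 in the UMIs left over, and the cause was not tested. It was 1.13 and 1.10 with 2 and 5 interferon genes, 1.0 from 10 myeloid UMIs on, 1.26 over all barcodes, 1.05 without cells of another lineage, 1.28 over depth strata and 1.10 as a mean of single cells. The *Yfp* share of members was 19.9% with 2 interferon genes, 10.8% and 18.3% at 1000 and 5000 UMIs, 21.3% without cells of over 20000 UMIs and 17.3% from 2 *Yfp* UMIs on.

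No paired analysis was possible because each condition had 1 library, which also leaves no library to drop. Depth limits the shares, which ran from 1.33% under 1000 UMIs to 30.1% from 10000 on.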
